A study of Mus musculus with 36 samples.

Results

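The TGF-beta and BMP response genes described here were Tgfb1 and Tgfb2, which encode secreted TGF-beta ligands, Tgfbr1 and Tgfbr2, which encode the kinases of the TGF-beta receptor, Smad6 and Smad7, which encode inhibitory Smads, and Id1, Id2 and Id3, which encode inhibitors of E proteins. They were chosen by gene symbol and make up 9 of the 55358 genes counted. All 9 were found in the counts and were followed in all 36 libraries. Of them, 8 passed the filter on low counts, as did 15114 genes in all. Tgfb2 did not pass it and was close to silent, with 38 counts over all libraries, 0 to 5 counts in each of them and at most 0.369 CPM (counts scaled to library size).

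RNA was measured in primary mouse keratinocytes from newborn pups, and the question was how the genes depend on plakophilin 4 (PKP4), an armadillo protein of adherens junctions. WT cells were compared with PKP4-KO cells, which lack exon 9 of Pkp4, and with Rescue cells, which are PKP4-KO cells that stably express human PKP4 with a GFP tag (GFP-PKP4) from a lentivirus after selection with puromycin. Every genotype was kept in either low calcium medium (LCM, 50 µM CaCl2) or high calcium medium (HCM, 1.2 mM CaCl2 added), in which keratinocytes form junctions and differentiate. Cells were taken after 24 h or 72 h, which gave 12 groups of 3 libraries. The pups that gave the WT cells were not those that gave the PKP4-KO cells. Rescue cells went through a viral selection that WT cells did not. The labels do not tie libraries to separate pups or cultures, so p-values measure only the spread between these libraries, which may be technical.

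TGF-beta ligands bind a type II receptor, which activates a type I receptor, which in turn phosphorylates receptor Smads that enter the nucleus with Smad4. BMP ligands use related receptors and other Smads, and the Id genes are among their best known direct targets. In the epidermis, TGF-beta restrains the growth of keratinocytes, while Id proteins hold back differentiation by binding E proteins, which then cannot bind DNA.

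The libraries held between 13602728 and 22467187 counts. Krt5 and Krt14, which mark basal keratinocytes, lay between 7624 and 43862 CPM in every library, while the summed fibroblast markers stayed at or below 11.6 CPM. Summed melanocyte, leukocyte and endothelial markers stayed at or below 2.09, 3.64 and 5.41 CPM. Of these, the melanocyte marker Tyr and the Langerhans cell marker Cd207 were at 0 in all 36. The melanocyte markers Pmel and Mlana were at 0 in only 1 library each, and the endothelial marker Pecam1 was counted in every library (0.156 to 4.73 CPM). Of the 4 Merkel cell markers, Atoh1 was at 0 in all libraries and Krt20 in 9, while Sox2 (6.40 to 40.3 CPM) and Isl1 (0.306 to 4.43 CPM) were counted in every library. Their sum was lowest in PKP4-KO at 72 h HCM (7.56 to 9.40 CPM), lay between 14.3 and 42.9 CPM in the other PKP4-KO groups, between 13.0 and 29.1 CPM in WT and between 22.7 and 44.3 CPM in Rescue, and its part in the results was not tested. Summed simple epithelium keratins (Krt7, Krt8, Krt18, Krt19) lay between 90.8 and 378 CPM in Rescue and between 3.59 and 19.0 CPM in the other genotypes, and their part in the results was not tested. Most of the sum in Rescue was Krt7, which reached 367 CPM. Krt8, Krt18 and Krt19 stayed at or below 9.06, 1.30 and 10.2 CPM in every library. Pkp4 in PKP4-KO stood at 19.9%, 18.8%, 12.6% and 27.5% of WT at 24 h HCM, 72 h HCM, 24 h LCM and 72 h LCM (exact permutation test, two-sided, p = 0.1 for each, the smallest p that 3 against 3 libraries allow). GFP-PKP4 had 1902 to 15325 counts in Rescue libraries, against 0 to 113 in WT. The PKP4-KO libraries of 72 h HCM stood apart in their scaling factors (0.48 to 0.55 there, 0.71 to 1.39 elsewhere) and in the trend of their levels on gene length. WT 72 h HCM replicate 3, PKP4-KO 72 h LCM replicate 2, PKP4-KO 24 h LCM replicate 1, PKP4-KO 24 h HCM replicate 3, WT 24 h HCM replicate 2, Rescue 24 h LCM replicate 3 and Rescue 72 h LCM replicate 2 stood apart from the other libraries of their groups by the same trend. Results that rest on such a library are given below with it left out.

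The sequences before the starts of the Id genes are shown because the main results concern these genes. In HCM, PKP4-KO had more Id1 and Id3 and less Id2 than WT, while at 72 h LCM both Id2 and Id3 were lower. The rises of Id3 at 72 h HCM and of Id1 at 24 h HCM did not hold in every check given below. Each sequence is the 250 bases before the start of the canonical transcript, read from GRCm39 on the gene's own strand, 5′ to 3′. Id1 is on the forward strand at chr2:152577915-152578164, Id2 on the reverse strand at chr12:25147283-25147532 and Id3 on the forward strand at chr4:135870558-135870807. Capitals mark every match, on either strand, to GTCTG (the Smad box, CAGAC on the other strand), GGCGCC (a GC-rich element that BMP Smads bind) or CACGTG (an E-box), none of which overlap here.
Id1 promoter: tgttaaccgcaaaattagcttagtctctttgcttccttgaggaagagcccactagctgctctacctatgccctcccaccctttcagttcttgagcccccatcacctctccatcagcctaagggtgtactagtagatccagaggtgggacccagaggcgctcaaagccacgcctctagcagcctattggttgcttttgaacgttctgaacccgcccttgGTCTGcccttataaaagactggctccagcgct
Id2 promoter: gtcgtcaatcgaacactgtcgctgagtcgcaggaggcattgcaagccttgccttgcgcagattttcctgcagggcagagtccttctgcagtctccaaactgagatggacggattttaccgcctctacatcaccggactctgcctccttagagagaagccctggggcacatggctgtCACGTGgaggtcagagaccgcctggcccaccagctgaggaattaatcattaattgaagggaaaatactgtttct
Id3 promoter: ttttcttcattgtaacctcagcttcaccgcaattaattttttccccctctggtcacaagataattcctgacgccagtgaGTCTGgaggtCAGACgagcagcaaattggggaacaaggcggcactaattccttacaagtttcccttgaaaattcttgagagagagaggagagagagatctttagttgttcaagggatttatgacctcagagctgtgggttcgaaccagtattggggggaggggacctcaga

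The Id1 window held GTCTG at 32 bases before the start. In the Id3 window, GTCTG began at 171 and CAGAC at 161 bases before the start. That window overlaps an exon of another gene, Gm57159, on the other strand. The Id2 window held CACGTG at 74 bases before the start and no match to the Smad box. None of the 3 windows held GGCGCC. Over the 21770 protein-coding promoters of the same length, 41.3% held GTCTG, 9.31% held GGCGCC and 6.26% held CACGTG, so a match to GTCTG in a window of this size is common.

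Per length, Id1 was the most abundant member, with a mean of 105 RPKM (CPM per kilobase of counted gene length) over the 36 libraries. Id3 followed at 20.9 RPKM and Id2 at 18.2 RPKM. The receptor gene Tgfbr2 and the ligand gene Tgfb1 lay close together, at 6.24 and 6.17 RPKM, while Tgfbr1 was at 1.19, Smad7 at 1.69 and Smad6 at 0.608 RPKM. All further levels are CPM values scaled with edgeR's TMM factors, with the 3 libraries of a group given in the order of their replicate numbers, and compare the same gene between groups. In these bulk samples, a change in the share of cells that express a gene and a change in RNA per cell cannot be told apart.

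**Figure D1:**
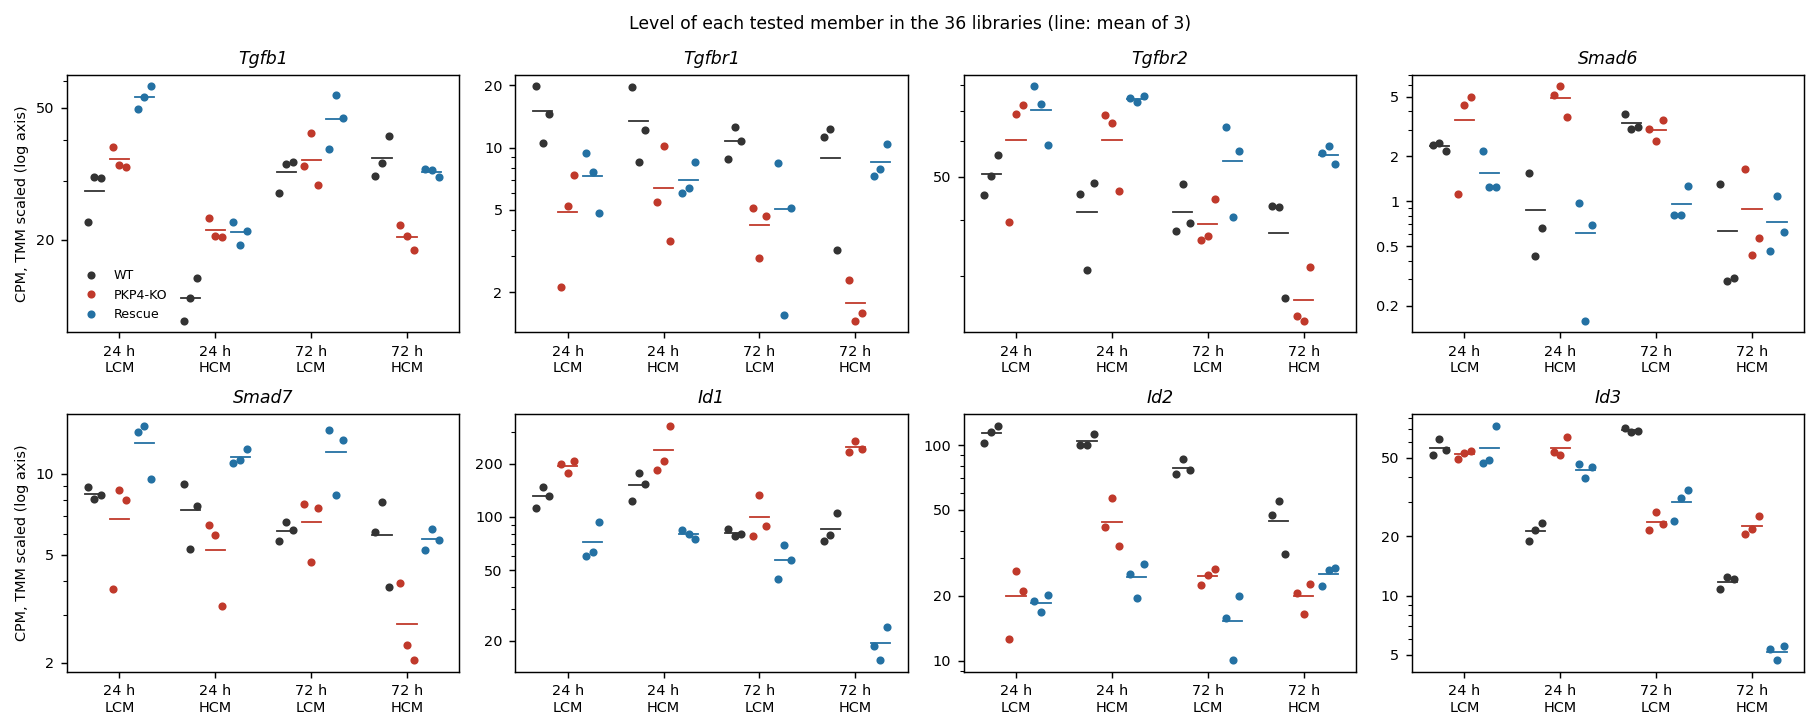
Level of each tested member in CPM on a log axis, by culture condition; points are the libraries of WT, PKP4-KO and Rescue and lines the mean of the 3 libraries of a group. Id2 was at 31.2 CPM or more in every WT library and at 28.2 CPM or less in every Rescue library, while Id1 spanned 15.5 to 328 CPM and was lowest in Rescue at 72 h HCM.

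Compared with WT, PKP4-KO cells had more Id1 and Id3 and less Id2 in HCM at both times. Genes are called here where the adjusted p-value of edgeR's quasi-likelihood test is below 0.05. The call of Id3 at 72 h HCM was lost without TMM factors (0.17 on the log2 scale, adjusted p = 0.367). That of Id1 at 24 h HCM was lost without PKP4-KO replicate 3 (0.37, adjusted p = 0.2) or WT replicate 1 (0.53). With only the groups compared in the fit it was lost too (adjusted p = 0.124). At 24 h HCM, 6 of the 8 tested members were called, 5 higher (Id1, Id3, Tgfb1, Smad6, Tgfbr2) and 1 lower (Id2), where 42.8% of all tested genes were called (members 5 higher and 2 lower with DESeq2). At 72 h HCM, 6 were called, 2 higher (Id1, Id3) and 4 lower (Id2, Tgfbr1, Tgfb1, Smad7), against 51.8% of all genes (members 1 higher and 5 lower without TMM factors). In LCM, 3 members were called at 24 h, Id1 higher and Id2 and Tgfbr1 lower, against 40.2% (members 2 higher and 2 lower with an offset for gene length, 0 higher and 2 lower without TMM factors), and 3 at 72 h, Id2, Id3 and Tgfbr1 lower, against 45.1%. Calls were thus frequent among all genes in these comparisons.

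**Figure D2:**
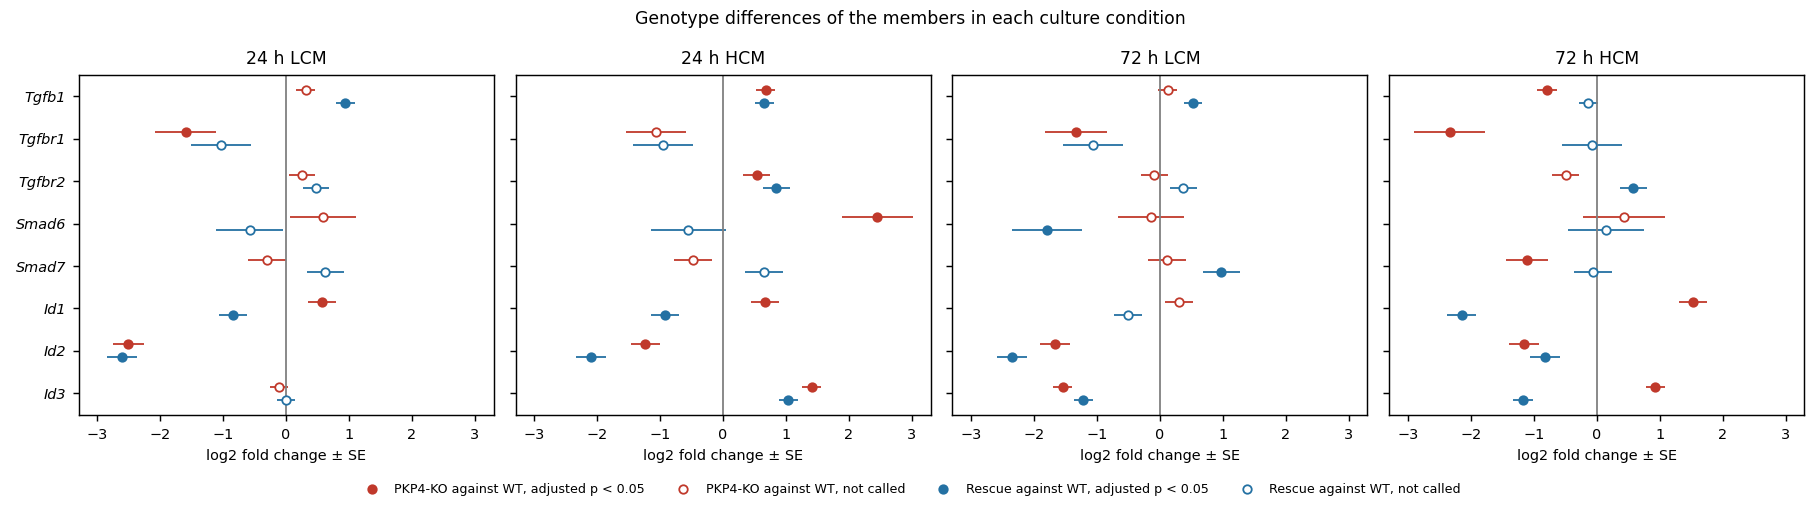
Log2 fold change (± SE) of each tested member against WT in the 4 culture conditions, for PKP4-KO and Rescue; filled points have an edgeR adjusted p below 0.05. Id2 lies left of 0 for both genotypes in every condition, Id1 lies right of 0 for PKP4-KO and left of 0 for Rescue, and Id3 changes side with medium and time.

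Tgfb1 (ENSMUSG00000002603, chromosome 7, 25386390 to 25404506, forward strand of GRCm39, 7 exons in its canonical transcript) encodes the TGF-beta ligand that was measurable in these cells. In HCM at 24 h it stood at 11.4, 13.4 and 15.4 CPM in WT, 23.3, 20.5 and 20.5 CPM in PKP4-KO and 22.7, 19.4 and 21.3 CPM in Rescue. The WT libraries were the lowest of all 12 groups there and overlapped neither of the other genotypes. Tgfb1 was higher than WT by 0.68 on the log2 scale in PKP4-KO (SE 0.15, edgeR adjusted p = 0.000628) and by 0.66 in Rescue (SE 0.15, edgeR adjusted p = 0.002).

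In HCM at 72 h PKP4-KO was the lowest genotype. Tgfb1 stood at 31.2, 33.9 and 40.9 CPM in WT, 22.1, 20.5 and 18.6 CPM in PKP4-KO and 32.8, 32.5 and 31.0 CPM in Rescue. PKP4-KO lay below both other genotypes without overlap, by 0.79 on the log2 scale against WT (log2 fold change -0.79, SE 0.15, edgeR adjusted p = 0.000114), while Rescue and WT overlapped (-0.14, SE 0.15, adjusted p = 0.482). In LCM, PKP4-KO was not called against WT, with 38.0, 33.5 and 33.2 CPM against 22.6, 31.0 and 30.7 CPM at 24 h and 33.5, 41.9 and 29.2 CPM against 27.6, 33.9 and 34.4 CPM at 72 h. Rescue had the highest Tgfb1 of all groups in LCM, with 49.5, 53.9 and 57.9 CPM at 24 h and 37.5, 54.3 and 46.4 CPM at 72 h, which was 0.94 (SE 0.15, edgeR adjusted p = 2.62e-05) and 0.53 (SE 0.15, adjusted p = 0.00743) above WT on the log2 scale. The call at 72 h LCM was lost without Rescue 72 h LCM replicate 2 (0.39) or WT 72 h LCM replicate 1 (0.42).

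High calcium lowered Tgfb1 in each genotype at 24 h. The log2 fold change of HCM against LCM was -1.07 in WT (SE 0.15, edgeR adjusted p = 9.09e-06), -0.70 in PKP4-KO (adjusted p = 0.00709) and -1.35 in Rescue (adjusted p = 3.56e-07). At 72 h it was -0.77 in PKP4-KO (adjusted p = 0.00032) and -0.52 in Rescue (adjusted p = 0.011), while WT was not called (0.14, adjusted p = 0.532). The Rescue value at 72 h was not called without Rescue 72 h LCM replicate 2 (-0.39). Between 24 h and 72 h in HCM, Tgfb1 rose by 1.40 in WT (SE 0.15, adjusted p = 1.86e-07) and by 0.60 in Rescue (adjusted p = 0.00367), and PKP4-KO was not called (-0.07, adjusted p = 0.72).

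Tgfbr1 (ENSMUSG00000007613, chromosome 4, 47353134 to 47414931, forward strand, 9 exons) encodes the type I receptor kinase that phosphorylates the TGF-beta Smads. Its highest group mean was in WT at 24 h LCM, where the libraries stood at 19.8, 10.5 and 14.6 CPM, and its lowest in PKP4-KO at 72 h HCM, at 2.29, 1.45 and 1.59 CPM from 10 to 18 counts. WT lay above PKP4-KO in mean in every condition, and its libraries at 72 h HCM, 11.3, 12.3 and 3.18 CPM, still did not overlap PKP4-KO. Tgfbr1 was 5.03-fold lower in PKP4-KO at 72 h HCM (log2 fold change -2.34, SE 0.56, edgeR adjusted p = 0.00105).

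In LCM, PKP4-KO stood at 2.11, 5.22 and 7.35 CPM at 24 h and at 5.12, 2.94 and 4.65 CPM at 72 h, where WT had 8.83, 12.6 and 10.8 CPM. These were falls of 1.60 and 1.33 on the log2 scale against WT (log2 fold changes -1.60 and -1.33, SE 0.49 each, edgeR adjusted p = 0.00977 and 0.0281), with no overlap of libraries. The call at 24 h was lost without PKP4-KO 24 h LCM replicate 1 (-1.25) or WT 24 h LCM replicate 1 (-1.35), and that at 72 h without PKP4-KO 72 h LCM replicate 2 or 3 or WT 72 h LCM replicate 2 or 3 (-1.41 to -1.14). At 24 h HCM the groups overlapped, 5.45, 10.2 and 3.55 CPM against 19.7, 8.48 and 12.2 CPM, and Tgfbr1 was not called (-1.06, SE 0.48, adjusted p = 0.0751).

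Rescue was above PKP4-KO at 72 h HCM, at 7.27, 7.87 and 10.5 CPM (log2 fold change 2.26, SE 0.56, edgeR adjusted p = 0.000949). Against WT, Rescue was called in none of the 4 conditions by edgeR, with log2 fold changes of -0.95, -0.08, -1.03 and -1.07 at 24 h HCM, 72 h HCM, 24 h LCM and 72 h LCM. The SE of each of these was 0.48, and in LCM all Rescue libraries lay below those of WT at both times. The 81 tested genes that start within 5 Mb of Tgfbr1 had median log2 fold changes of 0.29 to 0.43 for PKP4-KO against WT in the 4 conditions. For Rescue against WT these medians were -0.70 to -0.53. Tgfbr1 in PKP4-KO thus lay on the other side of 0 from the median of its neighbours. In Rescue it lay on the same side in each condition, and nearer to 0 than that median at 72 h HCM only.

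Tgfbr2 (ENSMUSG00000032440, chromosome 9, 115913361 to 116004800, reverse strand, 7 exons) encodes the type II receptor, which binds the ligand. It varied least of the tested members, with neighbouring groups overlapping at each of the 11 steps in the order of the means from 74.7 CPM (Rescue, 24 h HCM) to 26.6 CPM (PKP4-KO, 72 h HCM). Rescue at 24 h HCM had 74.8, 73.6 and 75.7 CPM against 45.6, 30.9 and 48.3 CPM in WT, a rise of 0.84 on the log2 scale (SE 0.21, edgeR adjusted p = 0.00426). PKP4-KO had 68.7, 65.8 and 46.5 CPM there and overlapped WT (0.54, SE 0.21, adjusted p = 0.0439), a call that did not hold without PKP4-KO replicate 1 (0.43) or 2 (0.47) or WT replicate 1 (0.60) or 2 (0.36) of that condition, or with the replicate number as a block (adjusted p = 0.0537).

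In HCM at 72 h, Tgfbr2 stood at 43.0, 42.7 and 26.8 CPM in WT, 24.4, 23.8 and 31.5 CPM in PKP4-KO and 56.3, 58.4 and 53.3 CPM in Rescue. Rescue lay above all libraries of the other genotypes. It was 1.08 above PKP4-KO (SE 0.22, edgeR adjusted p = 0.000115) and 0.58 above WT (SE 0.21, adjusted p = 0.0364), and with an offset for gene length these were 0.35 (adjusted p = 0.0507) and 0.31 (adjusted p = 0.11). Without WT 72 h HCM replicate 3 the latter was 0.38 (adjusted p = 0.232), and it was not called either without any of the 3 Rescue libraries (0.54 to 0.61). In PKP4-KO in HCM, Tgfbr2 fell by 1.18 on the log2 scale between 24 h and 72 h (adjusted p = 5.19e-05), and by 0.73 with the length offset.

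Smad6 (ENSMUSG00000036867, chromosome 9, 63860341 to 63929793, reverse strand, 4 exons) encodes an inhibitory Smad that acts mainly on BMP signals. It was rare, with 3 to 141 counts a library. In HCM at 24 h it stood at 5.13, 5.90 and 3.69 CPM in PKP4-KO, 1.55, 0.431 and 0.663 CPM in WT and 0.982, 0.159 and 0.696 CPM in Rescue. PKP4-KO had the highest mean of the 12 groups and did not overlap the other genotypes. It was 5.58-fold above WT (log2 fold change 2.45, SE 0.56, edgeR adjusted p = 0.000729), and Rescue was 8.02-fold below PKP4-KO (log2 fold change -3.00, SE 0.58, adjusted p = 0.000118).

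In the other conditions the PKP4-KO and WT libraries overlapped and Smad6 was not called, with log2 fold changes of 0.43, 0.59 and -0.14 at 72 h HCM, 24 h LCM and 72 h LCM. The difference between HCM and LCM in the PKP4-KO effect at 24 h was itself not called (1.86, SE 0.76, edgeR adjusted p = 0.223). At 72 h LCM, Rescue had 0.806, 0.810 and 1.26 CPM against 3.86, 3.05 and 3.14 CPM in WT (log2 fold change -1.80, SE 0.55, adjusted p = 0.0129), a call lost without Rescue 72 h LCM replicate 1 (-1.68). High calcium lowered Smad6 in WT at 72 h to 1.30, 0.294 and 0.308 CPM, by 2.34 on the log2 scale (log2 fold change -2.34, SE 0.58, adjusted p = 0.00412).

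Smad7 (ENSMUSG00000025880, chromosome 18, 75500374 to 75529006, forward strand, 4 exons) encodes the inhibitory Smad that blocks the type I receptors of both branches and is itself induced by TGF-beta. Rescue had the highest levels, 14.2, 15.1 and 9.56 CPM at 24 h LCM, 11.0, 11.2 and 12.4 CPM at 24 h HCM and 14.5, 8.32 and 13.3 CPM at 72 h LCM. No WT library was above 9.12 CPM, and of these Rescue libraries only replicate 2 at 72 h LCM was below that. Rescue was above PKP4-KO in all 4 conditions, by 1.13, 1.04, 0.93 and 0.86 on the log2 scale at 24 h HCM, 72 h HCM, 24 h LCM and 72 h LCM (SE 0.30 to 0.33, edgeR adjusted p = 0.00333, 0.00741, 0.0166 and 0.022). Both calls in LCM were lost without PKP4-KO 24 h LCM replicate 1 (0.64) or PKP4-KO 72 h LCM replicate 2 (0.67), respectively, and without Rescue 24 h LCM replicate 1 or 2 or Rescue 72 h LCM replicate 1 or 3 (0.70 to 0.85).

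Against WT, Smad7 was called at 72 h HCM for PKP4-KO, with 3.94, 2.33 and 2.04 CPM against 6.08, 7.87 and 3.79 CPM. The groups overlapped, and the fold change was -1.11 on the log2 scale (SE 0.34, edgeR adjusted p = 0.00719). The call was lost without WT 72 h HCM replicate 2 (-0.86). Rescue was called against WT at 72 h LCM (0.98, SE 0.30, adjusted p = 0.0121), which was lost without Rescue 72 h LCM replicate 1 (0.82) or WT 72 h LCM replicate 1 (0.89).

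Id1 (ENSMUSG00000042745, chromosome 2, 152566218 to 152579544, forward strand, 2 exons in its canonical transcript) encodes an inhibitor of E proteins and is a classical BMP target. In HCM at 72 h it stood at 73.2, 78.9 and 105 CPM in WT, 232, 268 and 240.4 CPM in PKP4-KO and 18.6, 15.5 and 23.8 CPM in Rescue. With TMM scaling, PKP4-KO had the highest and Rescue the lowest mean of all 12 groups, and no libraries of the 3 genotypes overlapped. Id1 was 2.88-fold above WT in PKP4-KO (log2 fold change 1.53, SE 0.23, edgeR adjusted p = 2.49e-06) and 4.44-fold below WT in Rescue (-2.15, SE 0.23, adjusted p = 4.38e-08). Rescue was 12.8-fold below PKP4-KO (-3.68, SE 0.25, adjusted p = 9.58e-13). The size of these differences depended on the processing. Without TMM factors, PKP4-KO against WT was 0.79 (edgeR adjusted p = 0.000135). Over the alternatives, Rescue against PKP4-KO lay between -3.81 and -2.50 and was called in each.

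The same order of the genotypes was measured in the other conditions, with smaller differences. In HCM at 24 h, Id1 stood at 123, 177 and 153 CPM in WT, 183, 207 and 328 CPM in PKP4-KO and 84.6, 80.0 and 74.5 CPM in Rescue. The genotypes did not overlap, and PKP4-KO replicate 3 was the highest of the 36 libraries. The log2 fold changes against WT were 0.66 for PKP4-KO (SE 0.22, edgeR adjusted p = 0.0158) and -0.92 for Rescue (SE 0.22, adjusted p = 0.00264). Without PKP4-KO 24 h HCM replicate 3 the former was 0.37 (adjusted p = 0.2), and without WT 24 h HCM replicate 1 it was 0.53; neither was called.

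At 24 h LCM, Id1 stood at 112, 148 and 131 CPM in WT, 198, 176 and 206 CPM in PKP4-KO and 60.1, 63.2 and 94.1 CPM in Rescue. No libraries of the genotypes overlapped there either. The log2 fold change was 0.57 for PKP4-KO (SE 0.22, edgeR adjusted p = 0.0401), which was lost without PKP4-KO or WT replicate 1 or 3 of that condition (0.47 to 0.57) or without TMM factors (0.34), and -0.85 for Rescue (adjusted p = 0.00509). At 72 h LCM neither was called, with 85.5, 77.6 and 80.5 CPM in WT, 78.0, 133 and 88.8 CPM in PKP4-KO and 44.4, 69.1 and 57.2 CPM in Rescue, although all Rescue libraries lay below WT (-0.51, SE 0.22, adjusted p = 0.0779).

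Genes around Id1 on chromosome 2 moved in the same direction. The 125 tested genes that start within 5 Mb of Id1 had median log2 fold changes of 0.55, 0.59, 0.60 and 0.54 for PKP4-KO against WT at 24 h HCM, 72 h HCM, 24 h LCM and 72 h LCM, and of -0.86 to -0.72 for Rescue against PKP4-KO. Id1 itself stood at 0.66, 1.53, 0.57 and 0.30 in the same order, close to the median of its neighbours at 24 h and beyond it at 72 h HCM. No such shift surrounded Id2, whose 43 neighbours had medians of 0.02 to 0.11, and the 143 neighbours of Id3 had medians of 0.12 to 0.37. Around Pkp4 itself, 19 tested genes within 5 Mb had medians of -1.18, -1.15, -0.92 and -0.76 for PKP4-KO against WT, in the same order of conditions. The part of these neighbourhoods in the members' values was not tested.

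Id2 (ENSMUSG00000020644, chromosome 12, 25143798 to 25147282, reverse strand, 3 exons) encodes another inhibitor of E proteins and was lower than WT in both PKP4-KO and Rescue in all 4 conditions. At 24 h LCM it stood at 102, 116 and 123 CPM in WT, 12.6, 26.0 and 21.2 CPM in PKP4-KO and 18.9, 16.8 and 20.2 CPM in Rescue. The lowest WT library was far above the highest of the other genotypes. This was a 5.71-fold lower level in PKP4-KO (log2 fold change -2.51, SE 0.24, edgeR adjusted p = 1.9e-09) and a 6.11-fold lower level in Rescue (-2.61, SE 0.24, adjusted p = 2.88e-09).

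Id2 at 24 h HCM stood at 99.9, 101 and 113 CPM in WT, 41.5, 56.9 and 34.2 CPM in PKP4-KO and 25.3, 19.6 and 28.2 CPM in Rescue. In LCM at 72 h it stood at 73.3, 85.9 and 76.7 CPM in WT, 22.4, 25.1 and 26.5 CPM in PKP4-KO and 15.8, 10.1 and 20.0 CPM in Rescue. At 72 h HCM, WT itself was lower, at 47.2, 55.1 and 31.2 CPM, against 20.7, 16.4 and 22.6 CPM in PKP4-KO and 22.2, 26.3 and 27.0 CPM in Rescue. WT lay above both other genotypes in each case without overlap. In that order, the folds below WT were 2.36, 3.19 and 2.23 in PKP4-KO (log2 fold changes -1.24, -1.67 and -1.16) and 4.29, 5.14 and 1.77 in Rescue (-2.10, -2.36 and -0.82). The edgeR adjusted p-values lay between 1.41e-06 and 0.000191 in PKP4-KO and between 8.14e-09 and 0.00655 in Rescue. Rescue was further from WT than PKP4-KO was at 24 h HCM (Rescue against PKP4-KO -0.86, SE 0.23, adjusted p = 0.00348) and at 72 h LCM (-0.69, SE 0.23, adjusted p = 0.0194), the latter lost without Rescue 72 h LCM replicate 2 (-0.46) or PKP4-KO 72 h LCM replicate 3 (-0.63). Without TMM factors, Id2 was not called for Rescue against WT at 72 h HCM (-0.46, adjusted p = 0.23). The difference of Rescue from PKP4-KO at 72 h LCM was then -0.30 (adjusted p = 0.458), and with the length offset it was -0.60 (adjusted p = 0.0532). Comparisons of PKP4-KO and of Rescue with WT share the WT libraries, so their values are set side by side and are not independent.

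Id3 (ENSMUSG00000007872, chromosome 4, 135870808 to 135873066, forward strand, 3 exons) encodes a further inhibitor of E proteins and differed between the media in WT at both times. In WT it stood at 51.8, 62.6 and 54.9 CPM at 24 h LCM and 18.9, 21.6 and 23.3 CPM at 24 h HCM, and at 71.3, 68.0 and 68.4 CPM at 72 h LCM and 10.7, 12.4 and 12.2 CPM at 72 h HCM. WT libraries in HCM lay far below those in LCM at both times. High calcium lowered Id3 in WT 2.66-fold at 24 h (log2 fold change -1.41, SE 0.15, edgeR adjusted p = 6.59e-08) and 5.88-fold at 72 h (-2.56, SE 0.16, adjusted p = 2.55e-12).

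In PKP4-KO no such difference was called with TMM factors. Id3 stood at 49.1, 53.2 and 54.3 CPM at 24 h LCM and 53.7, 51.8 and 63.9 CPM at 24 h HCM, and at 21.6, 26.4 and 23.0 CPM at 72 h LCM and 20.5, 21.7 and 25.2 CPM at 72 h HCM. The media overlapped at both times, with log2 fold changes of HCM against LCM of 0.11 (SE 0.15, edgeR adjusted p = 0.84) and -0.08 (SE 0.15, adjusted p = 0.72). The absence of a call at 72 h depended on the scaling. TMM factors of PKP4-KO there were 0.48 to 0.55 in HCM and 0.73 to 0.93 in LCM. Without these factors, every tested member was called for calcium in PKP4-KO at 72 h, Id3 among them. In Rescue, Id3 stood at 47.2, 48.6 and 73.0 CPM at 24 h LCM and 46.7, 39.3 and 45.0 CPM at 24 h HCM (-0.36, SE 0.15, adjusted p = 0.113). At 72 h, Rescue had 23.9, 31.1 and 34.3 CPM in LCM and 5.37, 4.71 and 5.52 CPM in HCM, a 5.73-fold lower level (-2.52, SE 0.16, adjusted p = 8.06e-12).

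Against WT, Id3 in PKP4-KO was 2.66-fold higher at 24 h HCM (log2 fold change 1.41, SE 0.15, edgeR adjusted p = 7.58e-09) and 1.90-fold higher at 72 h HCM (0.93, SE 0.15, adjusted p = 1.26e-05). At 72 h LCM it was lower (log2 fold change -1.55, SE 0.15, adjusted p = 1.8e-09), and at 24 h LCM it was not called (-0.11, SE 0.15, adjusted p = 0.567). Rescue was above WT at 24 h HCM (1.04, adjusted p = 4.94e-06) and below it at 72 h HCM (-1.18, adjusted p = 1.22e-06) and 72 h LCM (-1.22, adjusted p = 1.8e-07). Without TMM factors, where the median of all tested genes at 72 h HCM was itself -0.83, Id3 in PKP4-KO stood at 0.17 (adjusted p = 0.367).

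**Figure D3:**
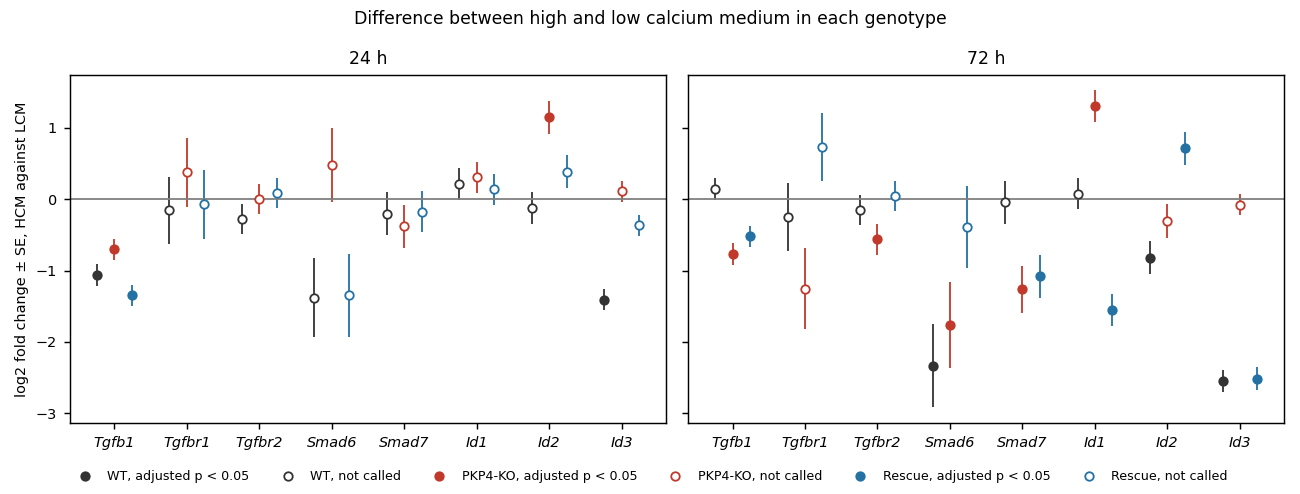
Log2 fold change (± SE) of HCM against LCM for each tested member in WT, PKP4-KO and Rescue at 24 h and 72 h; filled points have an edgeR adjusted p below 0.05. Id3 lies at -1.41 and -2.56 in WT and at 0.11 and -0.08 in PKP4-KO, and Id1 at 72 h lies at 1.30 in PKP4-KO and at -1.56 in Rescue. Values use TMM factors, without which Id3 in PKP4-KO was called at 72 h.

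High calcium changed 2 members in WT at 24 h, Id3 and Tgfb1, both lower, where 14.2% of all tested genes were called, and 3 at 72 h, Id3, Id2 and Smad6, all lower, against 21.4%. In PKP4-KO, 2 members were called at 24 h, Id2 higher and Tgfb1 lower, against 2.83% (members 0 higher and 1 lower without TMM factors), and 5 at 72 h, Id1 higher and Tgfb1, Smad6, Smad7 and Tgfbr2 lower, against 32.6%. In Rescue, Tgfb1 was the 1 member called at 24 h, against 12%, and 5 were called at 72 h, Id2 higher and Id1, Id3, Smad7 and Tgfb1 lower, against 24.9% (members 0 higher and 2 lower without TMM factors). Id1 rose with calcium in PKP4-KO at 72 h by 1.30 on the log2 scale (SE 0.22, edgeR adjusted p = 5.3e-05) and fell by 1.56 in Rescue (SE 0.23, adjusted p = 7.6e-06). The rise was 0.85 with the length offset (adjusted p = 4.57e-05) and 0.64 without TMM factors (adjusted p = 0.0016). Id2 rose in PKP4-KO at 24 h by 1.15 (adjusted p = 0.00419), which was lost without PKP4-KO 24 h HCM replicate 2 (0.92). In WT it fell at 72 h by 0.82 (adjusted p = 0.0102), which was lost without WT 72 h HCM replicate 3 (-0.62). Tgfbr2 in PKP4-KO at 72 h (-0.56, adjusted p = 0.049) was not called with a replicate block (adjusted p = 0.0596) or without PKP4-KO 72 h LCM replicate 1, 2 or 3 or PKP4-KO 72 h HCM replicate 1 or 2 (-0.62 to -0.46), and with the length offset it was -0.29. The call of Smad6 in PKP4-KO at 72 h (-1.76) was lost without PKP4-KO 72 h HCM replicate 2 or 3 or PKP4-KO 72 h LCM replicate 3 (-1.65 to -1.47), and that of Id2 in Rescue (0.71) without Rescue 72 h HCM replicate 2 or 3 or Rescue 72 h LCM replicate 2 (0.49 to 0.68). Differences between Rescue and the other genotypes in the effect of calcium were not tested.

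The effect of PKP4-KO itself differed between media and times for some members. Between HCM and LCM at 24 h it differed for Id3, by 1.52 (SE 0.21, edgeR adjusted p = 2.9e-05), and for Id2, by 1.27 (SE 0.32, adjusted p = 0.0208), where 4.02% of all tested genes were called. At 72 h it differed for Id3, by 2.48 (SE 0.21, adjusted p = 9.38e-09), Id1, by 1.23 (SE 0.31, adjusted p = 0.0153), and Tgfb1, by -0.91 (SE 0.22, adjusted p = 0.00835), against 5.74%. Between 72 h and 24 h in HCM it differed for Tgfb1, by -1.47 (SE 0.22, adjusted p = 7.9e-06), Tgfbr2, by -1.03 (SE 0.31, adjusted p = 0.0122), and Id1, by 0.86 (SE 0.31, adjusted p = 0.0402), against 26.6% (members 0 above and 3 below 0 with the length offset, 0 and 6 without TMM factors). In LCM it differed for Id3, by -1.44 (SE 0.21, adjusted p = 3.21e-05), against 5.25%. The differences for Id3 were called in every alternative and without every library. That for Id1 between the times held only without PKP4-KO 24 h HCM replicate 3, WT 24 h HCM replicate 1 or WT 72 h HCM replicate 3 and not without any of the other 9 libraries (0.70 to 1.15 over all 12), nor with the length offset (0.44) or without TMM factors (0.07, adjusted p = 0.842). That for Id1 between the media did not hold without PKP4-KO 72 h LCM replicate 1 (1.07) or WT 72 h HCM replicate 1 (1.12). That for Id2 did not hold without PKP4-KO 24 h HCM replicate 2, PKP4-KO 24 h LCM replicate 1, WT 24 h HCM replicate 2 or WT 24 h LCM replicate 3 (1.03 to 1.24), nor without TMM factors (1.55, adjusted p = 0.0571). In that scaling the differences of Tgfb1 and Tgfbr2 between the times in HCM were -2.28 and -1.89.

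All 3 Id genes fell in WT with time in HCM. Between 24 h and 72 h, 4 members were called there, Id1, Id2 and Id3 lower and Tgfb1 higher, against 17.8% of all tested genes. The log2 fold changes of the Id genes were -0.82 for Id1 (edgeR adjusted p = 0.01), -1.23 for Id2 (adjusted p = 0.000364) and -0.85 for Id3 (adjusted p = 0.000184), and that of Id1 was not called without WT 72 h HCM replicate 1 (-0.71). PKP4-KO had 6 members called in HCM, all lower (Id2, Id3, Smad6, Smad7, Tgfbr1, Tgfbr2), against 55.8%, while Id1 was not called there (0.05, adjusted p = 0.879). In Rescue, 4 were called in HCM, Id1, Id3 and Smad7 lower and Tgfb1 higher, against 24.3%, and Id3 fell 8.39-fold (log2 fold change -3.07, SE 0.16, adjusted p = 1.17e-13). In LCM, 1 member was called in WT (Id1, against 9.96%), 3 in PKP4-KO (Id1, Id3 and Tgfbr2, against 26.1%) and 1 in Rescue (Id3, against 9.81%), all lower. The call of Id1 in WT was lost without any of its 6 libraries (-0.78 to -0.58). The call of Smad7 in PKP4-KO in HCM (-0.93) was lost without PKP4-KO 24 h HCM replicate 1 or 2 or PKP4-KO 72 h HCM replicate 2 or 3 (-0.83 to -0.75), and that of Tgfbr1 (-1.85) without PKP4-KO 24 h HCM replicate 2 (-1.35). Smad7 in Rescue in HCM (-1.01) was not called without Rescue 72 h HCM replicate 1 (-0.95), nor Tgfbr2 in PKP4-KO in LCM (-0.62) without PKP4-KO 24 h LCM replicate 2 or 3 or PKP4-KO 72 h LCM replicate 1 or 2 (-0.58 to -0.47).

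In Rescue, Tgfb1, Tgfbr1 and Smad7 at 72 h HCM stood near WT, while the Id genes did not. Against WT, Rescue had 5 members called at 24 h HCM, where 23.2% of all tested genes were called, with 3 of them higher. Of the 4 called at 72 h HCM (36.2%), Tgfbr2 alone was higher. Tgfb1 was the only one of 3 that was higher at 24 h LCM (24.8%), and of 5 at 72 h LCM (32.4%) Tgfb1 and Smad7 were higher. With the length offset the split was 0 higher and 3 lower at 72 h HCM and 2 and 2 at 24 h LCM, and without TMM factors 1 and 4 at 72 h LCM. Against PKP4-KO, Smad7 was the 1 member higher among 5 called at 24 h HCM (40.8%). Tgfb1, Tgfbr1, Tgfbr2 and Smad7 were higher and Id1 and Id3 lower at 72 h HCM (66.7%). Smad7 and Tgfb1 were higher and Id1 lower at 24 h LCM (33.7%), and the same 2 were higher and Id1, Id2 and Smad6 lower at 72 h LCM (41.5%). That split was 2 higher and 2 lower at 72 h HCM with the length offset, and 1 and 1 at 24 h LCM and 4 and 1 at 72 h LCM without TMM factors. At 72 h HCM, Tgfb1 stood at 35.3 ± 5.0 CPM in WT, 20.4 ± 1.7 CPM in PKP4-KO and 32.1 ± 0.96 CPM in Rescue (SD, n = 3). In the same order, Tgfbr1 stood at 8.93 ± 5.0, 1.78 ± 0.45 and 8.54 ± 1.7 CPM, and Smad7 at 5.92 ± 2.0, 2.77 ± 1.0 and 5.71 ± 0.50 CPM. Rescue was called against PKP4-KO and not against WT for these 3 genes, although with the length offset the Rescue value of Tgfb1 against PKP4-KO was 0.27 (edgeR adjusted p = 0.209). Id1 had a lower mean in Rescue than in WT in all 4 conditions, Id2 was below WT, and Id3 at 72 h HCM was below WT too, with 11.8 ± 0.90 CPM in WT against 5.20 ± 0.43 CPM in Rescue. Id3 at 24 h HCM was called for Rescue against PKP4-KO (-0.37, adjusted p = 0.0433), but not with DESeq2 (-0.36) or without any of the 6 libraries but PKP4-KO replicate 2 (-0.42 to -0.27). At 72 h LCM, the calls against PKP4-KO were lost for Id1 without PKP4-KO replicate 2 (-0.55), for Smad6 without PKP4-KO replicate 3 or Rescue replicate 1 (-1.53 each), and for Tgfb1 without PKP4-KO replicate 1 or 3 or Rescue replicate 2 or 3 (0.27 to 0.39).

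At 72 h HCM the difference between genotypes varied with gene length. When the tested genes were split into 5 classes of equal size by length, the median log2 fold change of PKP4-KO against WT there fell from 0.85 in the shortest class to 0.15, -0.11, -0.31 and -0.70 in the longest, and that of Rescue against PKP4-KO rose from -1.48 to 1.12. At 24 h HCM the medians of PKP4-KO against WT lay between 0.13 and -0.23. Id1 is in the shortest class, Id2 and Id3 in the next, Smad6 and Smad7 in the middle, Tgfb1 and Tgfbr1 in class 4 and Tgfbr2 in the longest. Id1 (1.53), Id3 (0.93), Id2 (-1.16), Smad7 (-1.11), Tgfb1 (-0.79) and Tgfbr1 (-2.34) lay further from 0 than the median of their class at 72 h HCM, whereas Tgfbr2 (-0.50) lay nearer to 0 than that of its class. For Rescue against PKP4-KO there, Tgfb1 (0.65) and Tgfbr2 (1.08) lay near the medians of their classes (0.60 and 1.12). The other members called in it, Tgfbr1, Smad7, Id1 and Id3, lay beyond theirs. All 6 members called for PKP4-KO against WT at 72 h HCM were also called with the length offset. Without TMM factors, the median of all tested genes for PKP4-KO against WT there was -0.83, and 1 member was then called higher (Id1, 0.79) and 5 lower. In that scaling Id2 was at -1.96, Smad7 at -1.92 and Tgfb1 at -1.54. For Rescue against PKP4-KO at 72 h HCM, where the median of all genes was then 1.37, Tgfb1 was at 1.83, Tgfbr1 at 3.42, Tgfbr2 at 2.24, Smad7 at 2.22 and Id3 at -0.94. For Rescue against WT there, Id3 was at -0.77. For time in PKP4-KO in HCM, where that median was -1.16, Id2 was at -2.23, Id3 at -2.38, Smad7 at -2.01, Tgfbr1 at -2.94 and Tgfbr2 at -2.26. With TMM factors, the class medians for time in PKP4-KO in HCM fell from 1.18 in the shortest class to -0.75 in the longest. Id1, which was not called there, is in the shortest class and lay below its median.

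**Figure D4:**
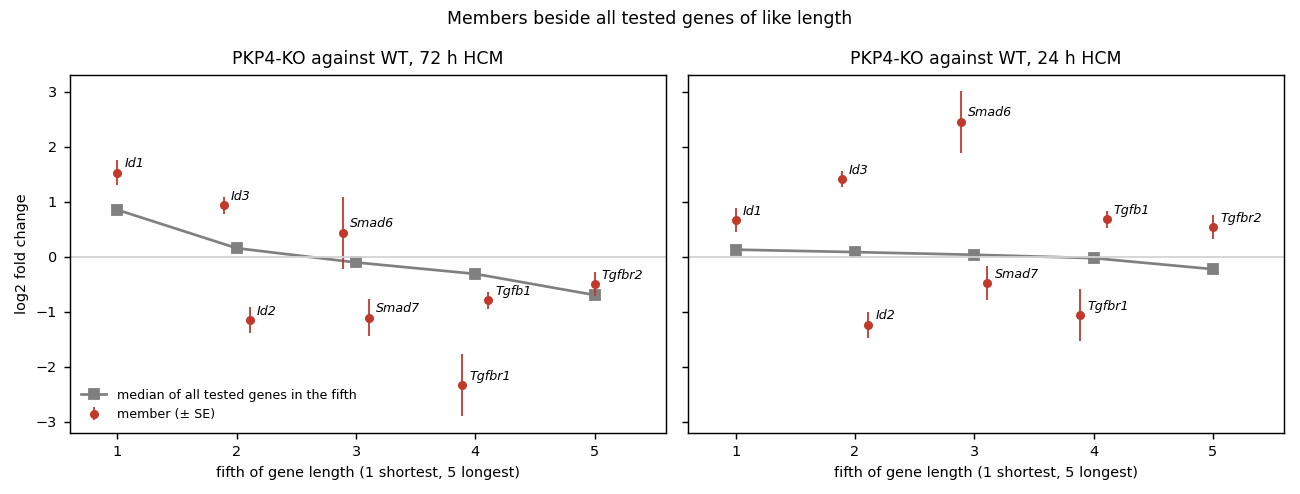
Log2 fold change of PKP4-KO against WT at 72 h HCM and 24 h HCM by class of gene length, from 1 (shortest) to 5 (longest); grey squares are the median of all tested genes in a class and red points the members with their SE. At 72 h HCM the medians fall from 0.85 to -0.70, and Id1 at 1.53 and Tgfbr1 at -2.34 lie beyond the median of their own class.

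Of 67 further genes of the TGF-beta and BMP pathways, 60 were tested. In PKP4-KO against WT, 35 of them were called at 24 h HCM, where 42.8% of all tested genes were called, and of these 17 rose and 18 fell (median log2 fold change -0.14). At 72 h HCM, 41 were called (51.8% of all tested genes), of which 9 rose and 32 fell, and the median was -0.71 where that of all tested genes was -0.07. At 24 h LCM, 13 of 34 called genes were higher and 21 lower, where 40.2% of all tested genes were called (median -0.28, against 0.0033 for all tested genes). At 72 h LCM, 14 of 37 were higher and 23 lower, where 45.1% of all were called (median -0.34, against 0.02). The split at 72 h depended on the scaling, with 3 higher and 45 lower at 72 h HCM without TMM factors, and 18 higher and 18 lower at 72 h LCM with the length offset. With 1 library left out, fewer genes of the list were called in each condition. They numbered 30 to 34 at 24 h HCM, 29 to 40 at 72 h HCM, 28 to 31 at 24 h LCM and 29 to 34 at 72 h LCM. The shares of all tested genes given here are those of the full fit. Among the 10 receptor genes tested, 4 fell and 1 rose at 24 h HCM, and 7, 3 and 6 fell and none rose at 72 h HCM, 24 h LCM and 72 h LCM. All 3 E protein genes (Tcf3, Tcf4, Tcf12), whose products the Id proteins bind, fell at 72 h HCM (median -1.21). In the other conditions they did not move together. At 24 h, 1 was called higher and 1 lower in each medium, and at 72 h LCM 1 was called, lower. At 72 h HCM the median of all tested genes ran from 0.85 in the shortest class of gene length to -0.70 in the longest. The part of gene length in the counts of receptor and E protein genes was not tested.

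**Figure D5:**
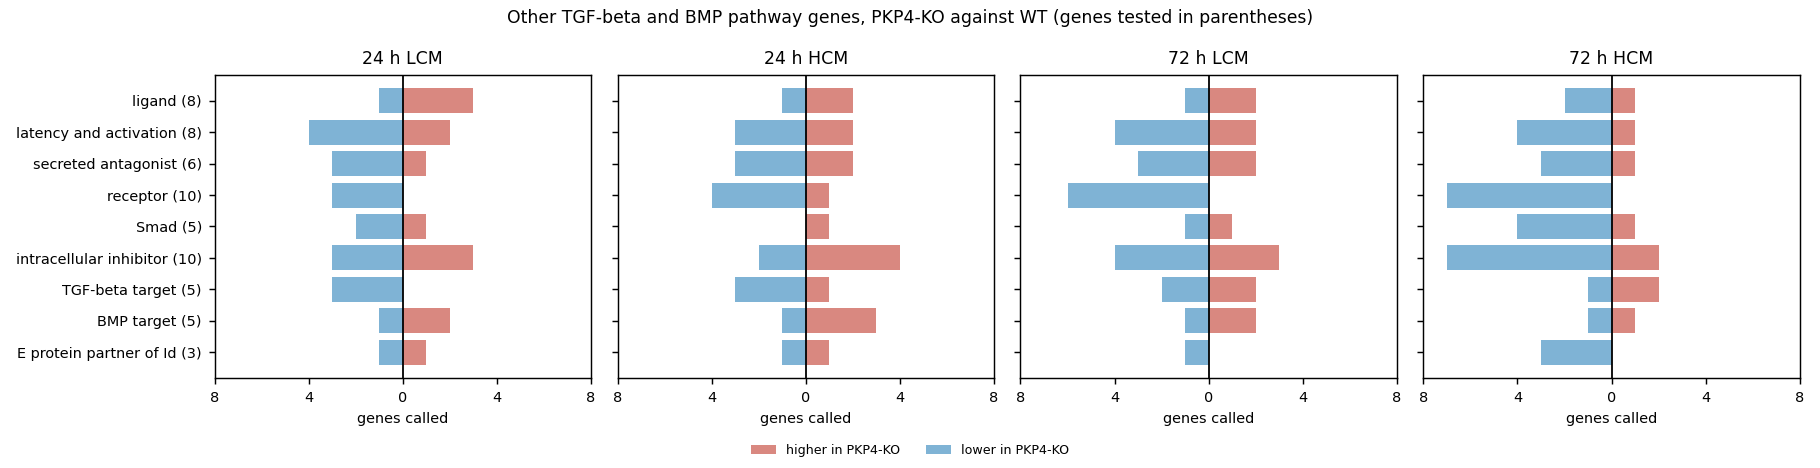
Number of other TGF-beta and BMP pathway genes called in PKP4-KO against WT, by role and culture condition; red bars to the right count genes that were higher and blue bars to the left genes that were lower, with the number tested in parentheses. Among receptor genes 7 of 10 were lower at 72 h HCM and 1 of 10 was higher at 24 h HCM.

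Ccn2, a matricellular protein gene induced by TGF-beta and YAP, had the largest log2 fold change of the list in PKP4-KO against WT at 24 h in both media. Its WT libraries lay between 27.2 and 158 CPM over the 4 conditions, those of PKP4-KO between 0.0839 and 1.97 CPM and those of Rescue between 4.86 and 25.0 CPM. The lowest PKP4-KO value is below a floor of 3 counts, which is 0.173 CPM at the median total. Ccn2 fell by 7.03 on the log2 scale in PKP4-KO at 24 h HCM (SE 0.46, edgeR adjusted p = 4.89e-13) and in Rescue against WT by 2.90 there (SE 0.36, adjusted p = 6.7e-07). The activin subunit gene Inhbb stood at 26.3 to 31.5 CPM in WT and 0.793 to 1.30 CPM in PKP4-KO at 72 h LCM (log2 fold change -4.80, SE 0.22, adjusted p = 3.92e-16), and at 8.69 to 13.2 CPM in Rescue. Nog, the BMP antagonist noggin, stood at 8.32 to 9.19 CPM in WT, 0.335 to 0.700 CPM in PKP4-KO and 2.65 to 4.30 CPM in Rescue in that condition (PKP4-KO against WT -3.86, SE 0.35, adjusted p = 4.5e-10).

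Some other genes of the list were higher than WT. Msx2, a homeobox gene and BMP target, had 5.76 to 6.32 CPM in PKP4-KO at 24 h HCM against 0.144 to 0.515 CPM in WT (log2 fold change 4.25, SE 0.57, edgeR adjusted p = 4.48e-07), and Rescue was also above WT, at 3.73 to 4.68 CPM (3.75, SE 0.57, adjusted p = 1.13e-05). The lowest WT library was below the floor of 3 counts, and both log2 fold changes are against the few WT counts at 24 h HCM. Ltbp3, which binds latent TGF-beta, was above WT in PKP4-KO there by 3.46 (SE 0.45, adjusted p = 2.69e-07) and in Rescue by 2.42 (SE 0.45, adjusted p = 0.000176). The BMP receptor gene Bmpr1b was below WT in PKP4-KO by 3.22 (log2 fold change -3.22, SE 0.44, adjusted p = 7.25e-07) and was not called in Rescue (0.05, adjusted p = 0.957). Atoh8, a BMP target, stood at 6.47 to 8.60 CPM in WT at 72 h LCM, while PKP4-KO had 0 or 1 count a library and Rescue 1 or 2, below the floor of 3 counts. Thbs1, whose product activates latent TGF-beta, was below WT in PKP4-KO at 72 h HCM (-4.29, SE 0.58, adjusted p = 6.03e-07) with 4 to 11 counts a library, and Rescue there was 4.13 above PKP4-KO (SE 0.58, adjusted p = 7.09e-07).

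Across the 12 group means, the members did not share 1 pattern. The Pearson correlation of mean log2 CPM was highest for Tgfbr1 with Id2 (0.79) and Tgfbr2 with Smad7 (0.74), was 0.53 for Id1 with Id3, and was lowest for Tgfb1 with Id2 (-0.50), over 12 groups that share their scaling. Of the 9065 protein-coding genes that averaged 5 CPM or more, those most like Id1 were Ptrh2 (0.97) and Polr2g (0.95), those most like Id2 were X2610301B20Rik (0.95) and Pdp1 (0.94), and those most like Id3 were Dph7 (0.93) and Kctd18 (0.93). Tgfb1 was most like Paox (0.88) and Pitpnc1 (0.87), Tgfbr1 like Cav1 (0.98) and Cpne3 (0.97), Tgfbr2 like Smndc1 (0.98) and Ibtk (0.97), Smad6 like Mapkbp1 and Dact2 (0.94 each) and Smad7 like Ptpre (0.94) and Tpm3 (0.92). In the order of the 12 group means, neighbouring groups had overlapping libraries at 10 of 11 steps for Id1, Tgfb1, Tgfbr1 and Smad7, at 9 for Smad6, at 8 for Id2 and at 6 for Id3.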

How the data were processed

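Libraries of poly(A) RNA kept the strand and were read from both ends. The authors aligned the reads with HISAT2 2.1.0 to mm39 and the GFP-PKP4 sequence, dropped secondary alignments using SAMtools 1.10 and deposited raw counts per gene from featureCounts 2.0.0 on the Ensembl annotation of GRCm39. The strand setting of the counting is not given in the sources used here, so reads of Tgfb2, Tgfbr1, Tgfbr2, Id1, Id2 and Id3 may not be told apart from those of antisense genes that overlap their exons.

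All 36 libraries were fitted together in edgeR 4.0.16 (R 4.3.3), with 12 group means, TMM factors, filterByExpr and the quasi-likelihood test, and p-values were adjusted by Benjamini-Hochberg over 15114 genes (threshold 0.05). SEs were the log2 fold change divided by the root of F. CPM used TMM-scaled totals and RPKM the counted gene length. Totals ran from 13602728 to 22467187 counts, and a floor of 3 counts is 0.173 CPM at the median total. The fit was tested on simulated counts. Alternatives were DESeq2 1.42.0, no TMM factors, other filters, fits of only the groups compared, a replicate block, each library left out and, chosen after seeing the data, an offset for gene length. Promoter windows, gene positions and motifs came from GRCm39 with GENCODE vM39.

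The members and lists were chosen with earlier results of these data known. Pathway genes were named by a rule that took, in each comparison, up to 5 called genes with the largest change and a mean of at least 1 CPM, and like-patterned genes were the 2 with the highest correlation. Tgfb2 was not tested.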

Additional observations from a re-analysis of the deposited data

Results flagged for a closer look

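Each result here is a difference between media or times in the effect of PKP4-KO against WT, tested by a contrast of the edgeR fit. Groups of 3 libraries are too small for a test of single outlying libraries.

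Between HCM and LCM, the effect on Id3 differed by 1.52 on the log2 scale at 24 h (SE 0.21, edgeR adjusted p = 2.9e-05) and by 2.48 at 72 h (SE 0.21, adjusted p = 9.38e-09). For Id2 it differed by 1.27 at 24 h (SE 0.32, adjusted p = 0.0208; 1.55, adjusted p = 0.0571, without TMM factors), and for Id1 by 1.23 at 72 h (SE 0.31, adjusted p = 0.0153). For Tgfb1 at 72 h the difference was -0.91 (SE 0.22, adjusted p = 0.00835).

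Between 72 h and 24 h in HCM, the effect differed by -1.47 for Tgfb1 (SE 0.22, edgeR adjusted p = 7.9e-06), by -1.03 for Tgfbr2 (SE 0.31, adjusted p = 0.0122) and by 0.86 for Id1 (SE 0.31, adjusted p = 0.0402). The value for Id1 was 0.44 with the length offset (adjusted p = 0.115) and 0.07 without TMM factors (adjusted p = 0.842), and was called in neither. In LCM it differed by -1.44 for Id3 (SE 0.21, adjusted p = 3.21e-05).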

How the results depend on the processing

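Of 100 called results of members, 59 kept their call under every alternative and without every library, 32 were lost without at least 1 library, and none reversed. The calls kept were 98 of 100 with DESeq2, 90 of 93 with at least 10 counts in every library, 91 of 100 with no filter, 93 of 100 with the length offset, 84 of 100 without TMM factors and 78 of 100 with only the groups compared in the fit. Without TMM factors the median of all genes was -0.83 for PKP4-KO against WT at 72 h HCM and 1.37 for Rescue against PKP4-KO there. Depth limits Smad6 and Tgfbr1, whose libraries hold as few as 3 and 10 counts. The cause of the changes below was not tested, save that a stricter filter leaves fewer genes.

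With only the groups compared, members called changed from 3 to 1 for time in PKP4-KO LCM, 1 to 0 in Rescue LCM and 1 to 2 in WT LCM, from 2 to 0 for calcium in PKP4-KO at 24 h and 5 to 3 in Rescue at 72 h, from 2 to 1 for the difference between media at 24 h, from 5 to 1 for Rescue against PKP4-KO at 72 h LCM and from 3 to 6 for Rescue against WT at 24 h LCM. With no filter, time in WT LCM went from 1 to 0. Without TMM factors, calcium went from 2 to 1 in PKP4-KO at 24 h, 5 to 8 at 72 h and 5 to 2 in Rescue at 72 h, and the PKP4-KO effect differed for 6 members between times in HCM and 1 between media at 24 h. Pkp4 then stood at 10.7%, 10.9% and 21.1% of WT at 24 h LCM, 72 h HCM and 72 h LCM. With at least 10 counts in every library, calcium in PKP4-KO at 72 h gave 3 members and Rescue against PKP4-KO at 24 h HCM 3. The pathway genes called were then 16, 16, 23 and 20 for PKP4-KO against WT (24 h HCM, 24 h LCM, 72 h HCM, 72 h LCM), 14, 14, 25 and 13 for Rescue against PKP4-KO and 8, 8 and 13 for Rescue against WT (24 h HCM, 24 h LCM, 72 h LCM). With the length offset, calcium in Rescue at 24 h gave 2 members and Rescue against WT at 72 h LCM 8.

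With each library left out in turn, members called ranged from 0 to 0 for time in WT LCM, 1 to 2 for calcium in PKP4-KO at 24 h, 3 to 4 at 72 h, 3 to 5 in Rescue at 72 h, 1 to 3 for PKP4-KO against WT at 24 h LCM, 1 to 2 for the difference between media at 24 h, 2 to 4 for Rescue against PKP4-KO at 72 h LCM and 3 to 5 for Rescue against WT at 72 h LCM.

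Libraries with the same replicate number did not deviate together: the correlations ran from -0.81 to 0.79 (median -0.04) and all pairs exceeded 0.1 in 3 of 24 comparisons. With the number as a replicate block, 98 of 100 calls were kept. The other 2 were both of Tgfbr2, -0.56 for calcium in PKP4-KO at 72 h (adjusted p = 0.0596) and 0.54 for PKP4-KO against WT at 24 h HCM (adjusted p = 0.0537).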
